A study of Macaca mulatta with 14 samples.

Results

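The 75 genes of the mitochondrial ribosomal proteins (MRPs) were followed while fibroblast cells of Macaca mulatta were converted to neuroepithelial stem cells (NESCs). The members are all genes whose symbol is MRPL or MRPS followed by a number and at most 1 letter. They are 75 of the 33688 gene loci that kept their values. MRPL20 and MRPL24 were each listed at 2 loci, of which the locus with the higher mean was used. MRPL2, MRPL21 and MRPL58 were not analysed here under these symbols.

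The values are RNA sequencing profiles of 7 cell lines with 2 libraries each. RF-P3 is the starting line, ear skin fibroblasts from 2 male fetuses of embryonic day 65 at passage 3, grown in serum. RF-iN-d5 and RF-iN-d11 are the same cells on day 5 and day 11 after retroviruses carrying rhesus SOX2, OCT4 and KLF4 were added. They were plated on laminin in an induction medium with the GSK3 inhibitor CHIR99021, the TGF-beta receptor inhibitor SB431542, vitamin C and bFGF, which at first also held the ROCK inhibitor Y27632 and valproic acid. CHIR-P6 and CHIR-P23 are the epithelial colonies at passage 6 and passage 23, grown in a related medium. For this medium the study lists SB431542, vitamin C, bFGF and human LIF, and does not name CHIR99021. C8-P7 and A9-P7 are colonies grown from single cells of passage 23, so that each is 1 clone. These last 4 lines are called the NESC lines and the other 3 the earlier lines. Values of several lines are always given in the order of this description, from RF-P3 to A9-P7 for all 7, from CHIR-P6 to A9-P7 for the NESC lines and from RF-P3 to RF-iN-d11 for the earlier lines. The culture medium changed together with the stage, so that medium and stage cannot be told apart. All cells from RF-iN-d5 on had met the retroviruses, and RF-P3 is the only line before them.

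Mitochondria carry ribosomes of their own, which make the few proteins encoded by mitochondrial DNA, all of them subunits of the respiratory chain and the ATP synthase. Every protein of these ribosomes is encoded in the nucleus, made in the cytosol and imported, so that the large and the small subunit are assembled from nuclear and mitochondrial gene products. Some MRPs descend from ribosomal proteins of bacteria and others are found in mitochondria only. Dividing and differentiating cells both need this translation, and defects in MRP genes are known to cause disease of tissues with high energy demand, the brain among them.

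The values are FPKM, fragments scaled to transcript length and library size, which allow levels of different genes to be compared per length. For 28445 of the 33737 loci in the deposited table the values stood 1 position away from their gene and were moved back. Before this step 35 of the 77 loci with member symbols averaged under 1 FPKM, and after it none did, with the lowest member value in any line at 10.3 FPKM. Libraries had FPKM totals of 571041 to 697718. The relative depth of the lines, read from the steps between low FPKM values, lay between 1 for RF-P3 and 5.28 for A9-P7, and no read counts were used. The labels give 2 samples for each line, which the study describes as biological replicates, but both libraries differed by less than the sampling noise. Their squared difference over the expected counting variance was 0.146 to 0.160 in the 7 lines, where independent libraries give 1, so the average of a line's libraries stands here as 1 sample, a departure from the study's own count. For the members, the libraries of a line differed by at most 9.02% (MRPL50), and the median over members of the largest difference was 3.58%. As both libraries of a line differed by less than independent counting would give, this spread does not measure the counting error, and its cause was not tested. The labels of the lines were checked with marker genes. The 10 fibroblast markers summed to 14.4 to 84.4 FPKM in the NESC lines and 4241 to 7509 FPKM in the earlier lines. The 11 neuroepithelial markers summed to 968 to 1573 FPKM in the NESC lines and 201 to 414 FPKM in the earlier lines. A few genes carried this second sum, in CHIR-P6 FABP7 at 441, NES at 234 and SOX2 at 109 FPKM. SOX1, SOX3 and PAX6 were low in CHIR-P6, at 0.27, 0.05 and 2.25 FPKM, and higher in the later NESC lines. SOX2 was also carried by the retroviruses, and CDH2 made 140 of the 201 FPKM in RF-P3. The summed fibroblast markers had 4241 FPKM in RF-iN-d5 and 6069 in RF-iN-d11, beside 7509 in RF-P3. This sum hides differences between genes. From RF-P3 to RF-iN-d5, 8 of the 10 markers were lower, 4 of them at least 2-fold, and 2 were higher. COL1A1 went from 2307 to 573 FPKM and S100A4 from 1058 to 1298 FPKM. In bulk RNA, fewer cells of a type and less RNA per cell cannot be told apart.

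The MRP genes were all expressed in all 7 lines, at levels that differed little between lines. The median member had 60.9, 63.5, 54.5, 58.3, 63.0, 58.2 and 52.7 FPKM along the 7 lines from RF-P3 to A9-P7. Together the 75 genes summed to 5669, 5207, 4543, 5026, 5486, 5126 and 4672 FPKM from RF-P3 to A9-P7, which is between 0.732% and 0.934% of all FPKM. In FPKM, RF-iN-d11 and A9-P7 were the low lines, each holding the lowest value of 24 of the 75 genes, and RF-P3 held the highest value of 31 of them. The ranking of the lines changed with the measure. As shares of all FPKM the sums were 0.813%, 0.849%, 0.732%, 0.831%, 0.934%, 0.870% and 0.818% from RF-P3 to A9-P7. By share RF-iN-d11 was again lowest, but RF-P3 came next to it, and CHIR-P23 was highest. Averaged over the 7 lines, the members ran from 13.9 FPKM for MRPL53 to 192 FPKM for MRPS21, and 61 of the 75 lay within 2-fold of their median of 59.3 FPKM. The order of the members was similar in all lines, with rank correlations between 0.84 and 0.98 over the 75 genes. These correlations are across genes, which share their lengths and annotation between lines and are no replicates.

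**Figure D1:**
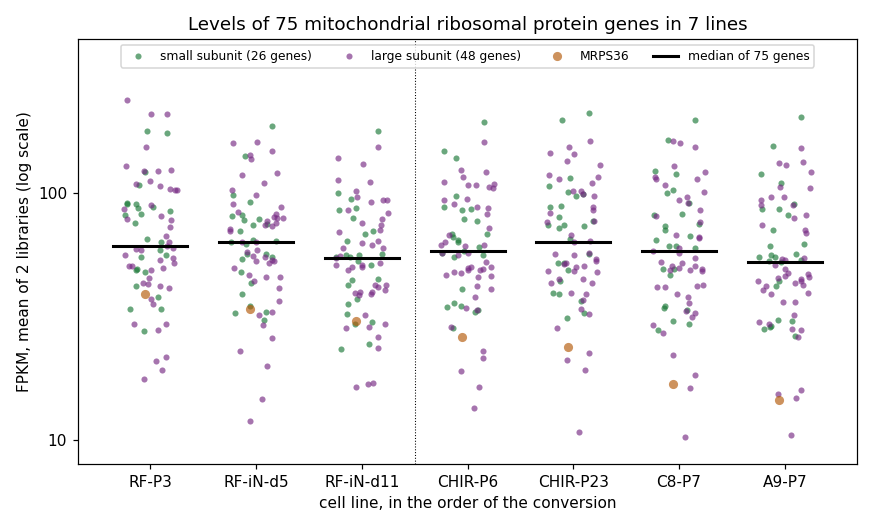
FPKM (log axis, mean of 2 libraries) of the 75 mitochondrial ribosomal protein genes in each of the 7 lines, in the order of the conversion, with each gene as 1 point coloured by subunit and the median as a black bar. The medians lie between 52.7 and 63.5 FPKM on both sides of the dotted border between the earlier lines and the NESC lines, while the genes themselves spread from 10.3 to 238 FPKM.

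At the top of this order stood MRPS21, MRPL51 and MRPL33. MRPS21, a small-subunit protein with a bacterial homologue, had 174, 186, 178, 194, 211, 197 and 204 FPKM from RF-P3 to A9-P7. All 4 NESC lines lay above all 3 earlier lines, but the difference did not pass the test (log2 fold change 0.16 ± 0.09, SE, limma adjusted p = 0.20). MRPL51, found in mitochondria only, had 209, 148, 154, 161, 163, 153 and 152 FPKM in these lines, so that RF-P3 alone stood out. MRPL33, which is among the shortest ribosomal proteins of bacteria, had 208, 161, 131, 108, 144, 158 and 130 FPKM, with overlapping groups. MRPL51 and MRPL33 differed by less than their spread over the lines and have no firm order between them.

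At the bottom stood MRPL53, MRPL19 and MRPL54, all of the large subunit. MRPL54, a mitochondria-specific protein, had 19.0, 21.0, 22.1 and 15.4 FPKM in the NESC lines and averaged 15.3 ± 2.94 FPKM in the earlier lines (SD, 3 lines). MRPL19, whose bacterial homologue sits at the interface with the small subunit, had 19.1, 20.0, 17.1, 16.3, 19.2, 16.2 and 14.8 FPKM. The ranges of these 2 genes overlap, and only MRPL53 fell clearly below them in the NESC lines, as described below with the called genes. The highest and the lowest member of a line differed between 10.9-fold in RF-iN-d11 and 19.6-fold in CHIR-P23.

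The first comparison asked which MRP genes differed between the 4 NESC lines and the 3 earlier lines. The fold change of most members was small: 7 of the 75 were higher in the NESC lines, 4 were lower and 64 were not called. The background was 16.8% of all 15024 genes tested called higher and 20.6% called lower, against 9.33% and 5.33% of the members. The called genes were MRPL23, MRPS26, MRPS27, MRPL48, MRPS23, MRPL35 and MRPS9 among the higher ones and MRPS36, MRPL43, MRPL53 and MRPL28 among the lower ones. The log2 fold changes of the members ran between -0.76 and 0.74, so that none reached 2-fold, where the background was 7.57% higher and 13.2% lower. The test was limma on log2(FPKM + 1) of the 7 line averages, with Benjamini-Hochberg adjustment over all genes tested and a threshold of 0.05, and all 75 members passed the filter on low values. Since the lines are successive stages of 1 conversion, these p-values measure the spread between lines and not between independent conversions.

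The median log2 fold change of the members was -0.06, beside -0.02 for all genes tested, with 32 members positive and 43 negative. The sign of this median depended on the scaling. With the libraries rescaled to the same total it was 0.07, where the median of all genes moved to 0.09, and with quantile normalization it was 0.10, where that of all genes moved to 0.14. Relative to all genes the median of the members was -0.04, -0.02 and -0.04 in these 3 scalings. The split of the calls moved too, with 9 members higher and 3 lower after rescaling and 12 higher and 4 lower after quantile normalization. The changes were small, with a median absolute log2 fold change of 0.18 for the members and 0.52 for all genes tested. Over the 7 lines, 90.7% of the members but 40.5% of all genes tested stayed within a 2-fold range on log2(FPKM + 1). This was not particular to the members. Cytosolic ribosomal protein genes had a median absolute change of 0.18 with 96.25% in that range, and oxidative phosphorylation genes 0.17 with 87.1%. All genes tested also had lower levels, with medians of 8.05 to 9.29 FPKM in a line, and were not matched for level. The groups did not overlap for 16 members, 7 of them with all NESC lines above and 9 with all NESC lines below the earlier lines. For all genes tested these shares were 21.1% above and 24.7% below. The standard error of a member's log2 fold change was between 0.09 and 0.39 with a median of 0.15, so a gene that was not called may still differ by a fraction of 2-fold.

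**Figure D2:**
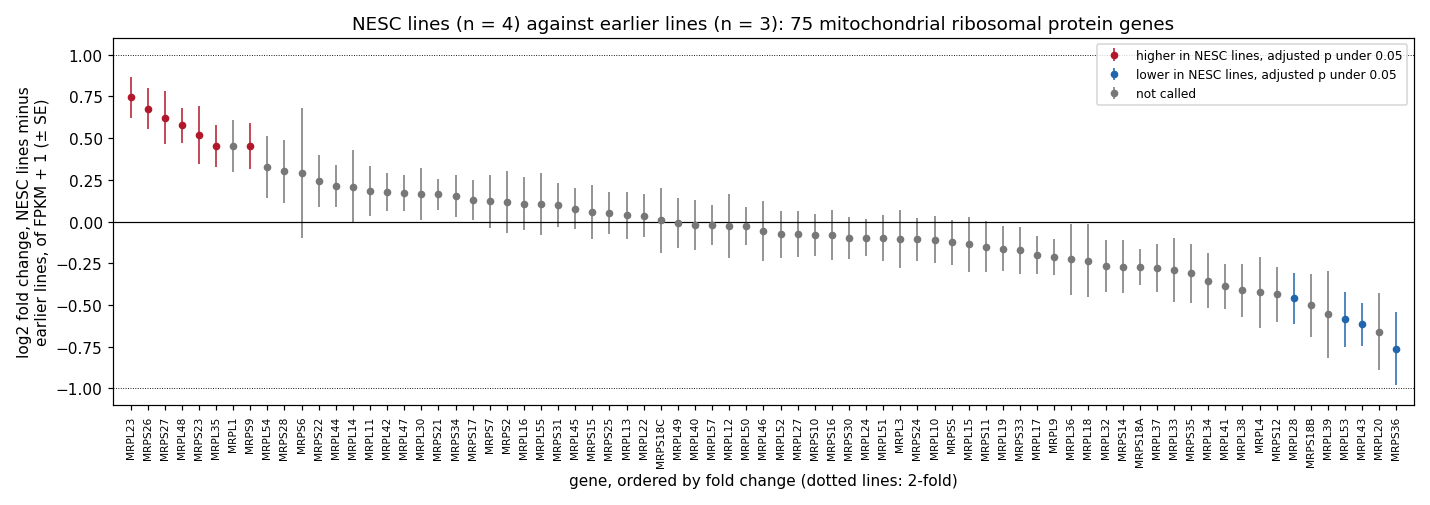
Log2 fold change of FPKM + 1 (NESC lines minus earlier lines, ± SE) of the 75 genes, ordered by size, with red for the 7 called higher, blue for the 4 called lower and grey for those not called. All points lie between -0.76 and 0.74, inside the dotted lines that mark 2-fold.

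The strongest increase was that of MRPL23, a protein at the end of the tunnel through which the new chain leaves the large subunit. MRPL23 had 121, 109, 114 and 134 FPKM in the NESC lines, against 63.1, 79.8 and 70.4 FPKM in the earlier lines. The groups did not overlap, and A9-P7, a low line for most members, was the highest line here (log2 fold change 0.74 ± 0.12, SE, limma adjusted p = 0.0039). MRPS26, a mitochondria-specific protein of the small subunit, had 76.6, 99.3, 91.1 and 90.0 FPKM in the NESC lines, against 58.5, 56.5 and 51.0 FPKM in the earlier lines. The 3 earlier lines were close together and all NESC lines stood above them (0.68 ± 0.12, adjusted p = 0.0052 by limma). MRPL48, a protein of the central protuberance of the large subunit, had 50.2, 50.0, 52.1 and 47.2 FPKM in the NESC lines and 35.6, 32.0 and 31.9 FPKM in the earlier lines. The 2 groups formed levels of 49.9 ± 2.00 and 33.2 ± 2.13 FPKM (SD, n = 4 NESC lines and n = 3 earlier lines), with the step between RF-iN-d11 and CHIR-P6 (0.58 ± 0.10, adjusted p = 0.0052 by limma).

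The other 4 higher genes gave less stable calls. MRPS27, a pentatricopeptide repeat protein of the small subunit, had 55.2, 72.0, 71.1 and 56.1 FPKM in the NESC lines and 48.5, 39.0 and 35.4 FPKM in the earlier lines. The groups did not overlap, with RF-P3 nearest to the NESC lines (log2 fold change 0.62 ± 0.16, SE, limma adjusted p = 0.020), and adjusted p rose to 0.058, 0.062, 0.062 and 0.062 without CHIR-P23, RF-iN-d11, C8-P7 or RF-iN-d5. MRPL35, a large-subunit protein with a bacterial homologue, had 109, 130, 122 and 121 FPKM in the NESC lines and 102, 78.9 and 82.6 FPKM in the earlier lines. CHIR-P6 and RF-P3 were close (0.45 ± 0.13, limma adjusted p = 0.027), and the call was lost, at adjusted p between 0.069 and 0.084, without any 1 line other than RF-P3 and CHIR-P6. MRPS9, whose bacterial homologue reaches to the tRNA in the P site, had 147, 107, 122 and 120 FPKM in the NESC lines and 89.9, 80.4 and 99.9 FPKM in the earlier lines. CHIR-P6 was the highest line and RF-iN-d11 lay close under CHIR-P23 (0.45 ± 0.14, limma adjusted p = 0.038). When any line but RF-iN-d11 and CHIR-P23 was left out, its adjusted p was between 0.055 and 0.12. MRPS23, a mitochondria-specific protein of the small subunit, had 138, 197, 164 and 155 FPKM in the NESC lines and 108, 141 and 94.4 FPKM in the earlier lines. RF-iN-d5 lay above CHIR-P6, so the groups overlapped (0.52 ± 0.17, limma adjusted p = 0.049). Its adjusted p was 0.093 to 0.14 without any 1 line other than RF-iN-d5 and CHIR-P6.

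Of the 4 lower genes, MRPL43 had the most stable call. MRPL43, a mitochondria-specific protein of the large subunit, had 45.5, 50.6, 48.9 and 43.2 FPKM in the NESC lines, against 80.3, 76.8 and 61.7 FPKM in the earlier lines. The NESC lines were close together and all lay below RF-iN-d11, the lowest earlier line (log2 fold change -0.62 ± 0.13, SE, limma adjusted p = 0.0094). MRPS36 carries the symbol of a small-subunit protein but is known as a subunit of the 2-oxoglutarate dehydrogenase complex of the citric acid cycle and not as a part of the ribosome. It had 39.1, 34.0, 30.3, 26.1, 23.8, 16.9 and 14.6 FPKM from RF-P3 to A9-P7. Up to CHIR-P23 each line was below the one before it, and both clones were below CHIR-P23. MRPS36 had the largest decrease among the members (-0.76 ± 0.22, limma adjusted p = 0.029), and adjusted p was 0.065 to 0.081 without RF-P3, RF-iN-d5, C8-P7 or A9-P7.

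MRPL53 and MRPL28 completed the lower genes. MRPL53, a mitochondria-specific protein and the member with the lowest level, had 13.4, 10.8, 10.3 and 10.5 FPKM in the NESC lines and 20.9, 14.7 and 16.8 FPKM in the earlier lines. The groups did not overlap, but CHIR-P6 lay close to RF-iN-d5 (log2 fold change -0.59 ± 0.17, SE, limma adjusted p = 0.028). Without any 1 line other than RF-iN-d5 and CHIR-P6 its adjusted p was 0.051 to 0.080. MRPL28, a large-subunit protein with a bacterial homologue, had 33.5, 36.9, 37.8 and 32.1 FPKM in the NESC lines and 53.6, 54.9 and 38.9 FPKM in the earlier lines. RF-iN-d11 lay close to the NESC lines (-0.46 ± 0.15, limma adjusted p = 0.045). Its call was lost without any 1 of the lines except RF-iN-d11, at adjusted p between 0.081 and 0.13, and after both other scalings, at 0.099 and 0.090. Over 18 alternative settings, MRPL23, MRPS26, MRPL48 and MRPL43 were called in all 18, MRPS27 and MRPS36 in 14, MRPL35 and MRPL53 in 13, MRPS9 in 11, MRPS23 in 9 and MRPL28 in 7.

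**Figure D3:**
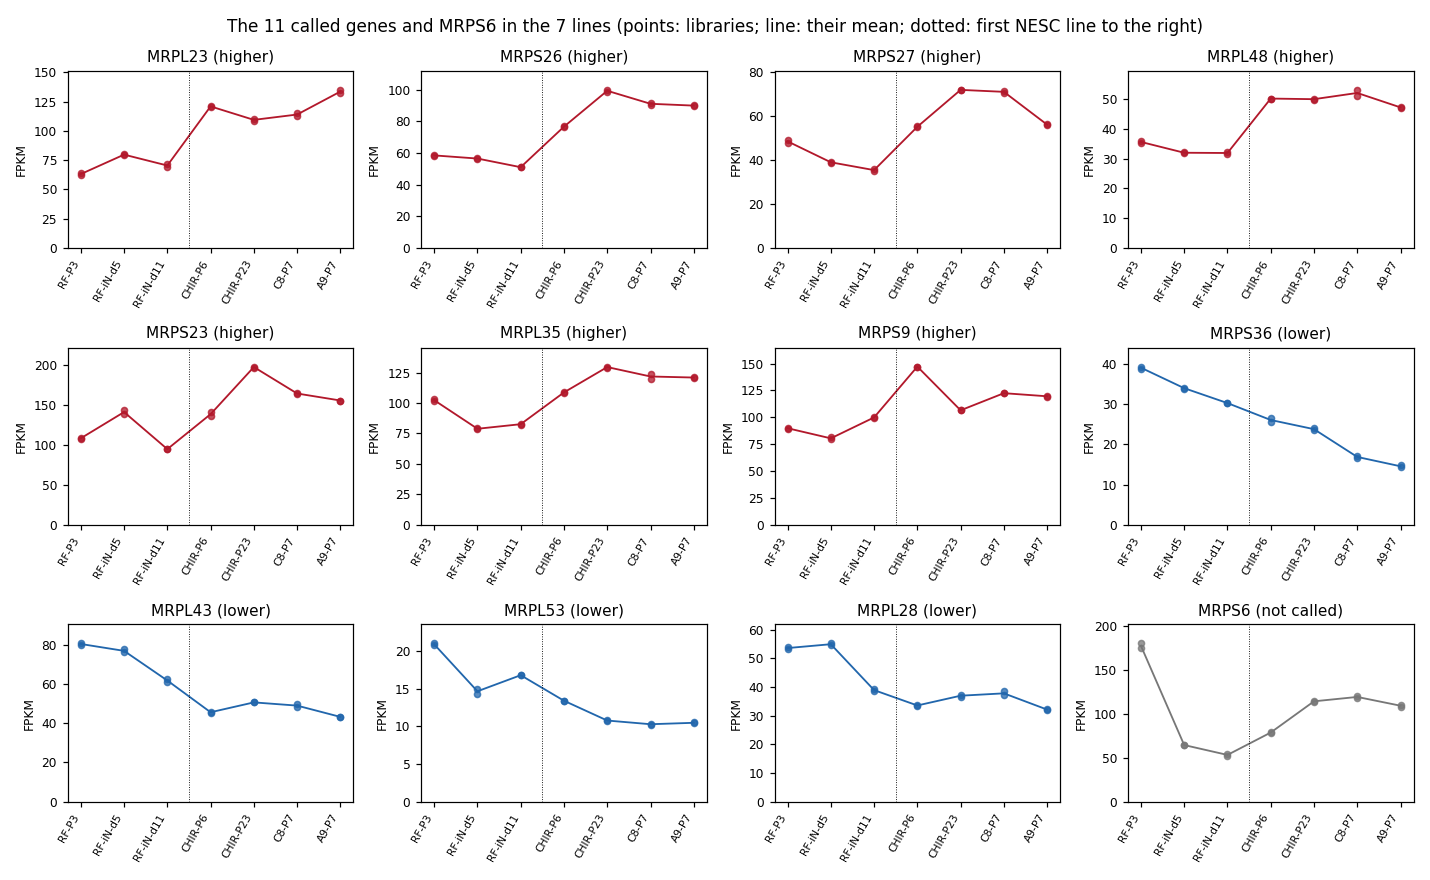
FPKM (linear axes from 0) of the 11 called genes and MRPS6 in the 7 lines in the order of the conversion, with the 2 libraries of a line as points, their mean as a line, and a dotted border before the first NESC line. MRPL23, MRPS26 and MRPL48 stand higher in each NESC line than in each earlier line. MRPS36 falls from line to line up to CHIR-P23 and is lower still in both clones, and MRPS6 is highest in RF-P3, at 178 FPKM.

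A further 7 members had adjusted p-values between 0.05 and 0.1 in limma. The share of all genes tested in this band was not computed. At an unadjusted limma p under 0.05, 8 of the 75 members were higher and 10 lower, beside 22.1% and 26.4% of all genes tested. MRPL1, which in bacteria forms the mobile stalk at the tRNA exit, was just outside the threshold, with 60.7, 67.4, 67.8 and 53.9 FPKM in the NESC lines and 42.7, 55.7 and 38.7 FPKM in the earlier lines (log2 fold change 0.45, limma adjusted p = 0.054). The other 6 had negative log2 fold changes between -0.66 and -0.27, namely MRPL20, MRPS18B, MRPS12, MRPL38, MRPL41 and MRPS18A. MRPS12, the homologue of the bacterial protein at the decoding centre, had 35.8, 43.9, 35.0 and 28.8 FPKM in the NESC lines and 49.2, 54.1 and 42.6 FPKM in the earlier lines. CHIR-P23 overlapped the earlier lines there (-0.44, limma adjusted p = 0.068). For MRPL38 and MRPL41 the NESC lines all lay below the earlier lines.

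By subunit, the called genes were divided as follows. Of the 26 small-subunit genes 4 were higher (15.4%) and none lower, and their median log2 fold change was 0.08. Of the 48 large-subunit genes 3 were higher and 3 lower (6.25% each), with a median of -0.09. For all genes tested the shares were 16.8% higher and 20.6% lower. At an unadjusted limma p under 0.05, 4 small-subunit genes were higher and 2 lower and 4 large-subunit genes higher and 7 lower, beside 22.1% of all genes tested higher and 26.4% lower. The difference between the subunits was not tested. The median small-subunit gene had 63.7, 73.7, 65.6 and 55.5 FPKM in the NESC lines and 70.3, 63.7 and 54.9 FPKM in the earlier lines. The median large-subunit gene had 56.5, 56.3, 52.3 and 46.5 FPKM in the NESC lines and 59.7, 63.4 and 53.2 FPKM in the earlier lines. MRPS18A and MRPS30 were counted with the large subunit, where their proteins are known to sit in the mammalian ribosome, and MRPS36 with neither. Of the 46 genes with bacterial homologues 3 were higher and 1 lower (6.52% and 2.17%, median -0.08). Of the 28 mitochondria-specific genes 4 were higher and 2 lower (14.3% and 7.14%, median -0.02). The shares of all these sets lay below those of all genes tested.

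At the exit tunnel and the central protuberance, 1 of 6 genes each was called higher, a share of 16.7% beside 16.8% of all genes tested. Of the 6 proteins listed here for the exit tunnel, MRPL23 rose and the other 5, MRPL47, MRPL22, MRPL24, MRPL17 and MRPL45, had log2 fold changes between -0.20 and 0.17 that did not pass the test. MRPL4, given below, was not on this list. MRPL45, which holds the ribosome to the inner membrane, had 28.8, 28.3, 27.0 and 29.4 FPKM in the NESC lines and 29.5, 23.0 and 28.4 FPKM in the earlier lines, which overlap. Of the 6 proteins of the central protuberance, MRPL48 rose, and MRPL40, MRPL46, MRPL18, MRPL55 and MRPL38 had values between -0.41 and 0.10 that did not pass. MRPL18, whose bacterial homologue binds 5S ribosomal RNA, had 61.8, 76.0, 58.2 and 43.8 FPKM in the NESC lines and 85.6, 71.5 and 54.5 FPKM in the earlier lines, so the groups overlapped. All 6 genes of the central protuberance were lower in RF-iN-d11 than in RF-iN-d5 and lower in A9-P7 than in CHIR-P23. Of the 6 genes listed for the exit tunnel, 4 were lower in each of these steps.

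Of the large-subunit genes that were not called, 3 are given as examples. MRPL3, which in bacteria lies near the peptidyl transferase centre, had 82.3, 85.4, 65.5 and 54.4 FPKM in the NESC lines and 72.5, 81.8 and 74.4 FPKM in the earlier lines, so that both passage lines stood above both clones. MRPL4, whose bacterial homologue reaches into the exit tunnel, had 48.7, 39.0, 31.4 and 26.0 FPKM in the NESC lines and 49.5, 51.9 and 42.2 FPKM in the earlier lines. CHIR-P23 was lower than CHIR-P6 and both clones were lower than CHIR-P23, and CHIR-P6 overlapped the earlier lines (log2 fold change -0.42 ± 0.21, SE, limma adjusted p = 0.15). MRPL44, which resembles the ribonuclease III family, had 37.9, 34.0, 33.3 and 28.2 FPKM in the NESC lines and 27.8, 29.1 and 28.6 FPKM in the earlier lines, with A9-P7 alone at the level of the earlier lines.

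The small subunit is represented by 3 further genes that were not called. MRPS7, whose bacterial homologue lies in the head of the subunit, had 32.9, 36.5, 33.5 and 30.4 FPKM in the NESC lines and 37.8, 30.7 and 24.4 FPKM in the earlier lines, which overlap. MRPS2 had 34.6, 39.2, 27.9 and 28.0 FPKM in the NESC lines and 34.0, 32.7 and 23.2 FPKM in the earlier lines. The passage lines of MRPS2 stood above both clones, as for MRPL3. MRPS14 had 68.3, 51.9, 49.1 and 53.0 FPKM in the NESC lines and 75.8, 70.0 and 55.8 FPKM in the earlier lines, so that only CHIR-P6 overlapped the earlier lines (log2 fold change -0.27 ± 0.16, SE, limma adjusted p = 0.21).

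The stalk, the part of the large subunit that recruits translation factors, had no called gene among its 3 members (0 at an unadjusted limma p under 0.05). Of all genes tested 16.8% were called higher and 20.6% lower, and 22.1% and 26.4% at that unadjusted p. MRPL12, which forms the arms of the stalk, had 154, 137, 96.6, 116, 153, 129 and 106 FPKM from RF-P3 to A9-P7. RF-P3 and CHIR-P23 were its high lines and RF-iN-d11 its low line, so that the groups overlapped (log2 fold change -0.03 ± 0.19, SE). MRPL11, at the base of the stalk, had 122, 142, 102, 124, 135, 163 and 132 FPKM, with C8-P7 highest. MRPL10, which holds the arms to the base, had 41.1, 53.0, 51.8, 52.6, 43.2, 41.9 and 42.3 FPKM, with RF-iN-d5, RF-iN-d11 and CHIR-P6 higher than the other lines. The 3 stalk genes peaked in different lines, but all 3 were lower in RF-iN-d11 than in RF-iN-d5 and lower in A9-P7 than in CHIR-P23.

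MRPS18A, MRPS18B and MRPS18C are paralogues of the same bacterial protein, and their products take different places in the ribosome. MRPS18B had 63.2, 52.2, 46.4 and 41.8 FPKM in the NESC lines and 82.5, 56.6 and 78.9 FPKM in the earlier lines. The groups overlapped at RF-iN-d5 (log2 fold change -0.50 ± 0.19, SE, limma adjusted p = 0.070). MRPS18A had 46.7, 43.2, 41.7 and 40.3 FPKM in the NESC lines and 50.8, 49.7 and 55.7 FPKM in the earlier lines, with no overlap (-0.27 ± 0.11, limma adjusted p = 0.082). MRPS18C, the paralogue that keeps the bacterial position, had 56.8, 74.3, 81.6 and 54.8 FPKM in the NESC lines and 81.2, 63.5 and 54.8 FPKM in the earlier lines. Its lines varied as much within as between the groups (0.01 ± 0.19, limma adjusted p = 0.98). None of the 3 passed the test, beside 16.8% of all genes tested called higher and 20.6% lower. At an unadjusted limma p under 0.05, 0 were higher and 2 lower, beside 22.1% and 26.4% of all genes tested. The differences between the paralogues were not tested.

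Of the 4 widest ranges over the lines, 3 belonged to genes that were not called, MRPS6, MRPL20 and MRPL39, and 1 to MRPS36. In FPKM without the added 1, the highest line exceeded the lowest 1.54-fold at the median of the 75 genes, from 1.21-fold for MRPL24 to 3.34-fold for MRPS6, and 8 genes exceeded 2-fold, of which MRPL53, at 2.03-fold, stays within 2-fold on log2(FPKM + 1). MRPS6, whose bacterial homologue pairs with the S18 protein on the platform of the small subunit, had 178, 64.5, 53.2, 78.7, 114, 119 and 109 FPKM from RF-P3 to A9-P7. The fibroblasts were thus far above all other lines, and the NESC lines stood between them and the induced cells. The log2 fold change of 0.29 ± 0.39 (SE, limma adjusted p = 0.57) has RF-P3 on the other side of the NESC lines than RF-iN-d5 and RF-iN-d11. Without RF-P3 it was 0.82 (adjusted p = 0.015 by limma), and without RF-iN-d11 it turned to -0.04.

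MRPL20 and MRPL39 varied in other ways. MRPL20, needed in bacteria for early assembly of the large subunit, had 93.7, 145, 114 and 93.3 FPKM in the NESC lines and 238, 160 and 138 FPKM in the earlier lines. CHIR-P23 lay above RF-iN-d11 (log2 fold change -0.66 ± 0.23, SE, limma adjusted p = 0.055). MRPL20 was called lower, at adjusted p 0.044 and 0.042 by limma, without RF-iN-d11 or CHIR-P23, and at 0.031 after quantile normalization. The second locus of MRPL20 averaged 56.0 FPKM, beside 140 FPKM for the locus used, and its log2 profile over the 7 lines correlated at 0.98 with it. The corresponding values for MRPL24 were 23.2 and 53.3 FPKM and a correlation of 0.93, so reads of both genes may be divided between near-identical copies and their levels are uncertain. MRPL39, which is related to threonyl-tRNA synthetases, had 56.0, 69.9, 51.1, 57.1, 48.5, 29.2 and 30.0 FPKM from RF-P3 to A9-P7. It was low in both clones only, with CHIR-P6 and CHIR-P23 in the range of the earlier lines (-0.56 ± 0.26, limma adjusted p = 0.13).

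As a description, the log2 profile of each member over the 7 lines was set against the median of the other members. The correlation was above 0.5 for 38 of the 75 genes and below 0 for 10, with a median of 0.50 (n = 7 lines, which share depth and stage). MRPS5, whose bacterial homologue lies at the mRNA entry of the small subunit, was closest to the common profile at 0.94, followed by MRPS11 at 0.88. The lowest correlations were those of MRPS9 at -0.50, MRPL45 at -0.46, MRPL23 at -0.38 and MRPS26 at -0.28. With 7 lines such values are uncertain, and they were not tested.

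The common profile showed in the steps between lines, which have 1 sample on each side and so no test. A member was counted at a difference of at least 1.5-fold on log2(FPKM + 1), beside the share of all genes tested that reached it. In RF-iN-d5 against RF-P3, 30 members were positive and 45 negative with a median of -0.05 (all genes 0.00). MRPL36, a short large-subunit protein with a bacterial homologue, was the 1 gene at least 1.5-fold higher, with 83.4 FPKM in RF-iN-d5 against 50.6 in RF-P3. MRPS6 was the 1 gene as much lower, at 64.5 FPKM in RF-iN-d5 against 178 in RF-P3. The background was 18.5% higher and 18.1% lower. The median of this step changed sign with the scaling, to 0.13 (all genes 0.13) after rescaling to the same total and 0.14 (all genes 0.01) after quantile normalization.

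In RF-iN-d11 against RF-iN-d5, 62 of the 75 members were lower and 13 higher, with a median log2 difference of -0.20, beside -0.01 for all genes tested. No member reached 1.5-fold, where the background was 8.29% higher and 8.71% lower, and the differences ran from -0.57 for MRPS23 to 0.47 for MRPS18B. This median was -0.22 after rescaling and -0.12 after quantile normalization. In CHIR-P6 against RF-iN-d11 the direction was the opposite, with 51 members higher and 24 lower and a median of 0.14 (all genes -0.00). MRPS28, MRPL23, MRPL1, MRPL48 and MRPS27 were at least 1.5-fold higher and no member was as much lower, with a background of 17.3% and 22.1%. MRPS28, a small-subunit protein, had the largest difference, with 97.5 FPKM in CHIR-P6 against 54.9 in RF-iN-d11. Of the 75 genes 44 were lower on day 11 than on day 5 and then higher at passage 6 than on day 11. Both steps use the same 1 sample of RF-iN-d11, so they are not independent. The same share over all genes tested was not computed. In a comparison of CHIR-P6 with RF-P3 directly, added after the data were seen, 27 members were higher and 48 lower (median -0.15, but 0.05 after rescaling and 0.25 after quantile normalization). There 3 members were at least 1.5-fold higher and 7 lower, MRPL23 and MRPL20 being the extremes, beside 22.9% and 25.1% of all genes.

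The later steps concerned passage and cloning. In CHIR-P23 against CHIR-P6, 52 members were higher and 23 lower, with a median log2 difference of 0.12 (all genes -0.01), which was 0.02 after quantile normalization. MRPL20 alone was at least 1.5-fold higher, with 145 FPKM in CHIR-P23 against 93.7 in CHIR-P6, and none was as much lower (background 5.1% and 10.9%). MRPS9 had the most negative difference, with 107 FPKM in CHIR-P23 against 147 in CHIR-P6. Both clones stood below the line they came from. In C8-P7 against CHIR-P23, 59 members were lower and 16 higher (median -0.09), and MRPL39 alone was at least 1.5-fold lower, with none as much higher (background 5.48% and 3.91%). In A9-P7 against CHIR-P23, 70 of the 75 were lower and 5 higher (median -0.25, all genes -0.00), and 6 were at least 1.5-fold lower and none higher (background 6.19% and 6.39%).

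The genes at least 1.5-fold lower in A9-P7 against CHIR-P23 were MRPL18, MRPL39, MRPS36, MRPL3, MRPL20 and MRPS12. MRPL18 had 43.8 FPKM in A9-P7 against 76.0 in CHIR-P23. MRPL3 had 54.4 FPKM in A9-P7 against 85.4 in CHIR-P23. MRPL23 went the other way, with 134 FPKM in A9-P7 against 109 in CHIR-P23. Between the clones, 59 members were lower and 16 higher in A9-P7 than in C8-P7 (median -0.15), and none reached 1.5-fold, beside 4.88% of all genes higher and 3.43% lower. This comparison of the clones was added after the data were seen. The clones also differed in relative depth, at 1.27 for C8-P7 and 5.28 for A9-P7, beside 4.72 for CHIR-P23. As each clone and each passage is 1 sample, a difference between clones cannot be told apart from a difference between cultures.

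**Figure D4:**
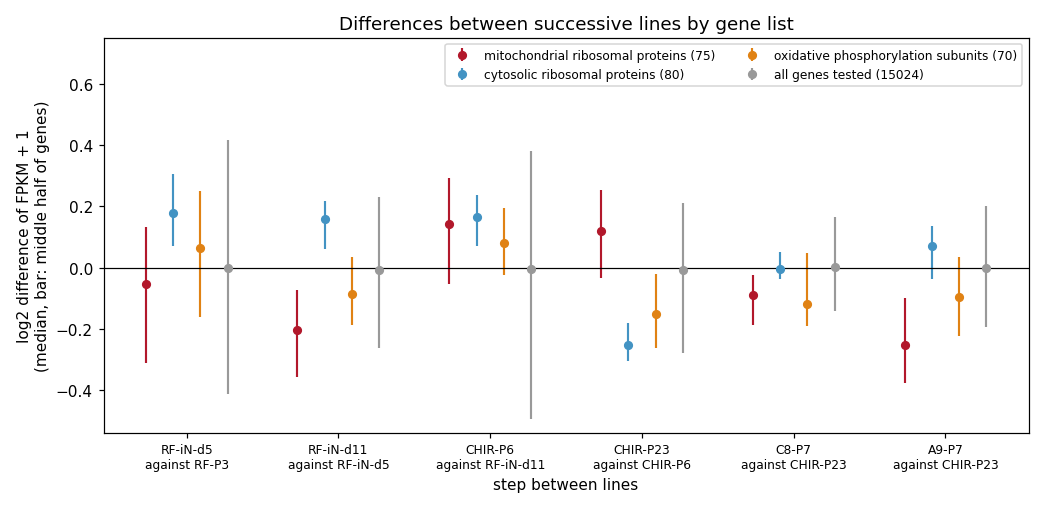
Median log2 difference of FPKM + 1 (point) and the range of the middle 50% of genes (bar) at 6 steps between lines, each later line against the line before it or, for both clones, against CHIR-P23, for the 75 mitochondrial ribosomal protein genes, 80 cytosolic ribosomal protein genes, 70 oxidative phosphorylation genes and all genes tested. The mitochondrial list lies at -0.20 in RF-iN-d11 against RF-iN-d5, where the cytosolic list lies at 0.16, and at 0.12 in CHIR-P23 against CHIR-P6, where the cytosolic list lies at -0.25.

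The genes of the cytosolic ribosome were described beside them. Of 80 cytosolic ribosomal protein genes tested, 1 was higher in the NESC lines (RPL39L, a paralogue of RPL39) and 1 lower (RPS27L, a p53 target). That was 1.25% in each direction, beside 16.8% of all genes tested higher and 20.6% lower. The median log2 fold change of the cytosolic genes was 0.15. Their medians at the 6 steps in the order of the conversion, with both clones against CHIR-P23, were 0.18, 0.16, 0.17, -0.25, -0.00 and 0.07. Those of the MRP genes were -0.05, -0.20, 0.14, 0.12, -0.09 and -0.25. On the deposited scale the lists differed in sign at 4 of the 6 steps, and neither was tested against the other. The cytosolic genes made up far more of the FPKM, between 123038 and 175937 FPKM in a line. Whether their level bears on the FPKM of other genes was not tested.

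The 12 proliferation markers moved in part with the same lines. They summed to 1336, 710, 606, 1419, 1979, 2009 and 1898 FPKM from RF-P3 to A9-P7, and 10 of the 12 were called higher in the NESC lines. RF-iN-d11 was the lowest line both for these markers and for the summed MRP genes, whereas RF-P3 had the highest MRP sum and A9-P7 the second lowest. As a share of all FPKM, the MRP genes were lowest in RF-iN-d11, then RF-P3, and highest in CHIR-P23. Fibroblast markers were called lower in 10 of 10 cases and neuroepithelial markers higher in 9 of 11, with SOX2 and CDH2 not called. Of 8 neuron markers 7 passed the filter on low values. These 7 summed to 219 to 344 FPKM in the NESC lines, against 69.5, 1079 and 668 FPKM in the earlier lines, so that RF-iN-d5 was the highest and RF-P3 the lowest. STMN2 carried most of this sum in the induced cells, with 705 FPKM in RF-iN-d5 and 537 in RF-iN-d11. Of the 7 neuron markers tested 3 were called higher in the NESC lines (DCX, ELAVL3 and MAP2) and 2 lower (STMN2 and SYT1), with a median log2 fold change of 0.99. The part of cell division, of remaining fibroblasts and of neuron-like RNA in the values of the MRP genes was not tested.

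Other genes that serve mitochondrial translation were taken from lists written for this purpose. Of 5 mitoribosomal proteins with other names (DAP3, PTCD3, CHCHD1, AURKAIP1 and ICT1), only PTCD3 was called, a pentatricopeptide repeat protein of the small subunit like MRPS27. PTCD3 had 46.9, 45.9, 50.2 and 46.8 FPKM in the NESC lines, against 39.0, 29.5 and 32.3 FPKM in the earlier lines (log2 fold change 0.49, limma adjusted p = 0.019). DAP3, a GTP-binding protein of the small subunit, had 82.5, 96.3, 90.2 and 88.3 FPKM in the NESC lines and 77.6, 91.9 and 72.1 FPKM in the earlier lines, which overlap. Of 23 assembly factors 2 were higher (8.70%) and none lower, beside 16.8% and 20.6% of all genes tested. At an unadjusted limma p under 0.05, 6 were higher and 1 lower, where the background was 22.1% and 26.4%. RBFA, which binds the small subunit while it matures, had 110, 111, 120 and 112 FPKM in the NESC lines and 71.8, 68.9 and 68.6 FPKM in the earlier lines, with a wide gap between the groups (0.69, limma adjusted p = 0.0017). YBEY, which joins small-subunit assembly, was at 0.58 (adjusted p = 0.027).

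Of 13 translation factors and related genes 5 were higher and 1 lower (38.5% and 7.69%), beside 16.8% and 20.6% of all genes tested. The 5 higher genes include LRPPRC and SLIRP, which are not translation factors in the strict sense. GFM2, the factor that helps to split the ribosome after a chain is finished, had 16.4, 19.3, 17.8 and 19.4 FPKM in the NESC lines and 8.84, 10.4 and 8.71 FPKM in the earlier lines. The NESC lines were near 2-fold higher with no overlap (log2 fold change 0.90, limma adjusted p = 0.0024). LRPPRC, which together with SLIRP stabilises mitochondrial mRNA, had 161, 158, 137 and 133 FPKM in the NESC lines and 82.2, 119 and 97.3 FPKM in the earlier lines (0.57, adjusted p = 0.022). TSFM, the exchange factor of the elongation factor TUFM, was the lower gene, with 30.0, 31.7, 21.3 and 17.0 FPKM in the NESC lines and 39.2, 46.1 and 40.9 FPKM in the earlier lines (-0.77, adjusted p = 0.030). TUFM itself was not called (0.12, adjusted p = 0.46).

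Of 20 mitochondrial tRNA synthetases and related enzymes 7 were higher and none lower (8 and 0 at an unadjusted limma p under 0.05), with a median log2 fold change of 0.25. The 3 largest were VARS2, NARS2 and RARS2, which load valine, asparagine and arginine on their tRNAs. VARS2 had 21.0, 19.1, 21.4 and 19.9 FPKM in the NESC lines and 8.62, 10.9 and 11.5 FPKM in the earlier lines, with no overlap (0.92, limma adjusted p = 0.0026). NARS2 was at 0.76 and RARS2 at 0.68 (adjusted p = 0.013 for each, limma). The background of this list is the same 16.8% and 20.6% for the calls, and 22.1% and 26.4% at an unadjusted limma p under 0.05. The difference of this list from the MRP genes was not tested.

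Of 70 oxidative phosphorylation subunits tested 2 were higher and 9 lower (2.86% and 12.9%), with a median log2 fold change of -0.09. Of all genes tested 16.8% were called higher and 20.6% lower. The largest change was that of SDHA, the flavoprotein of complex II, with 56.2, 41.7, 32.2 and 33.4 FPKM in the NESC lines and 94.7, 70.0 and 74.4 FPKM in the earlier lines (-0.97, limma adjusted p = 0.011). Of 16 genes of mitochondrial DNA maintenance and transcription 2 were higher (12.5%) and none lower, both below the shares of all genes tested. At an unadjusted limma p under 0.05, 4 were higher and 1 lower, beside 22.1% and 26.4% of all genes tested. TFAM, which packs mitochondrial DNA and starts its transcription, had 61.7, 82.2, 77.7 and 69.3 FPKM in the NESC lines and 52.4, 30.1 and 32.4 FPKM in the earlier lines, with no overlap (0.94, limma adjusted p = 0.011). MGME1, a mitochondrial exonuclease, was at 1.33 (adjusted p = 0.0063). Of 10 regulators of mitochondrial genes 2 were higher and 2 lower (20% each), near the shares of all genes tested. MYCN, a MYC family factor, had 12.3, 21.8, 33.5 and 39.1 FPKM in the NESC lines and 0.868, 1.76 and 1.36 FPKM in the earlier lines (3.47, adjusted p = 0.00069 by limma). MYC itself varied from line to line, with 202, 140, 66.7 and 81.9 FPKM in the NESC lines and 60.8, 177 and 132 FPKM in the earlier lines, and was not called. ESRRA, a nuclear receptor of mitochondrial genes, averaged 9.69 ± 3.52 FPKM over 4 NESC lines, against 22.1 ± 2.74 FPKM over 3 earlier lines (each ± SD; log2 fold change -1.16, adjusted p = 0.013 by limma).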

How the data were processed

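Total RNA of the 14 libraries was sequenced after removal of ribosomal RNA only, per the labels. The deposited values are FPKM that the authors obtained by aligning to Mmul_8.0.1. The submitters' processing notes name HISAT2 (version 2.1.0), Cuffnorm (2.2.1) and Cufflinks (2.2.1). FPKM are scaled within a library, so a change of abundant transcripts may move other values, which was not tested. The values of short or repeated genes depend on the length and mapping used. The table gives no coordinates.

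For table positions 1202 to 29646 (28445 loci) the values of the next position were used, and 49 loci were left out. Whole steps of low FPKM were found for 8600 of 23497 genes (within 0.1, or 2%) and used to compare libraries. Both libraries of a line were averaged. NESC lines (n = 4) were tested against earlier lines (n = 3) with limma 3.58.1 in R 4.3.3 (intensity trend, 5 residual degrees of freedom) on log2(FPKM + 1), Benjamini-Hochberg adjusted over the 15024 genes that reached 1 FPKM in 2 or more libraries. The pseudocount understates changes of low genes. The fit was tested on simulated data. The study calls the 2 libraries of a line biological replicates. They were nevertheless counted as 1 sample, since they differed by less than the sampling noise. Steps between lines were counted at 1.5-fold, with 2-fold as alternative.

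Members, lists and marker genes were chosen with earlier results of these data known. Genes with values in all lines were up to 6 called in each direction, the 3 highest, the 3 lowest, the 4 widest in range, the MRPS18 paralogues and the stalk; of other lists up to 3 called genes. MRPS9, MRPL1, MRPS12, MRPL18, MRPL45, MRPL36, MRPS28, MRPL3, MRPL4, MRPL44, MRPS7, MRPS2, MRPS14, DAP3, TUFM, MYC and others beyond this were chosen after their values were seen. Roles and lists rest on general knowledge, and 74 of the 75 symbols matched RefSeq names for another assembly, from which no coordinates were taken. Python 3.11.15, NumPy 2.4.6, pandas 2.3.3 and Matplotlib 3.10.9 were used.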

Additional observations from a re-analysis of the deposited data

Results flagged for a closer look

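Each of the 75 genes was screened for a line far from the other 3 NESC lines, measured by the gap to the nearest line over the whole range. This picked out 4 genes, and chance alone flags about 1 in 20 groups. MRPS33, a mitochondria-specific small-subunit protein, was low in C8-P7 at 64.3 FPKM, with the other NESC lines between 86.4 and 87.7 FPKM. MRPL10 was high in CHIR-P6 at 52.6 FPKM, with the others between 41.9 and 43.2 FPKM. MRPS25, also a small-subunit protein, was high in CHIR-P6 at 34.9 FPKM, with the others between 30.4 and 31.0 FPKM. MRPL53 was high in CHIR-P6 at 13.4 FPKM, with the others between 10.3 and 10.8 FPKM.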

How the results depend on the processing

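No member reached a 2-fold minimum (0 higher and 0 lower). With 14 libraries and the replicate block, 8 members were higher and 8 lower (correlation of libraries of a line 0.99), which counts libraries that differ by less than the sampling noise as separate samples. Libraries with the same number did not deviate together, with correlations between -0.03 and 0.06 over 21 pairs of lines, so the lines share only a number. Leaving out 1 line gave 3 to 7 higher and 1 to 6 lower members and a median log2 fold change between -0.12 and 0.0068; the 1 lower member stood without RF-P3, C8-P7 or A9-P7, and 4, 4, 3 and 4 higher ones without RF-iN-d11, CHIR-P23, C8-P7 and A9-P7. Leaving out replicate 1 or 2 of every line gave 8 and 6 higher and 3 and 6 lower. Quantile normalization gave 12 higher, and the median of the members was 0.068 after rescaling and 0.10 after quantile normalization.

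Step medians, in the order pseudocount 5, rescaled and quantile normalization, were as follows. RF-iN-d5 against RF-P3 was 0.13 rescaled and 0.14 by quantiles (-0.054 without replicate 1 and -0.073 without replicate 2), RF-iN-d11 against RF-iN-d5 was -0.19, -0.22 and -0.12, and CHIR-P6 against RF-iN-d11 was 0.14, 0.18 and 0.23 (0.15 without replicate 2). CHIR-P23 against CHIR-P6 was 0.16 rescaled and 0.023 by quantiles, C8-P7 against CHIR-P23 -0.085, -0.093 and -0.092, and A9-P7 against CHIR-P23 -0.23, -0.21 and -0.18. CHIR-P6 against RF-P3 was 0.053 rescaled and 0.25 by quantiles, and A9-P7 against C8-P7 -0.13, -0.11 and -0.10. The cause of these shifts was not tested.

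With the values left as labelled, 44 members passed the filter, and MRPL23 was at -1.45, MRPL11 at -1.68, MRPS36 at 1.43, MRPL43 at 0.094, MRPL28 at 0.25 and MRPS18B at 0.086; these are values of neighbouring genes. Genes near 0 changed sign: MRPL51 to 0.028 rescaled, 0.011 by quantiles and 0.057 without RF-P3; MRPL10 to 0.016 and 0.050 in these scalings; MRPL12 to 0.10 and 0.11, and to between 0.01 and 0.11 without RF-P3, RF-iN-d5, CHIR-P6 or A9-P7; MRPS18C to between -0.12 and -0.02 without C8-P7, CHIR-P23, RF-iN-d11 or RF-iN-d5; and MRPS6 to -0.041 without RF-iN-d11, with 0.82 without RF-P3. No read counts were used here, and with 7 samples the SE of a member was at least 0.09, which limits what could be detected.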

Other observations

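Mitochondrial transcripts were read from the same table for the 3 mitochondrial genes ND5, ND6 and COX2, chosen after the data were seen. COX2, the product of which is made on mitochondrial ribosomes, had 1030, 825, 666 and 780 FPKM in the NESC lines and 871, 1045 and 1185 FPKM in the earlier lines. The groups overlap, and RF-iN-d11, the line with the lowest MRP sum, had the highest value. ND5 lay between 194 and 252 FPKM in the NESC lines and 209 and 250 FPKM in the earlier lines, and ND6 between 184 and 288 FPKM in the NESC lines and 219 and 308 FPKM in the earlier lines.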
